A study of Mus musculus with 4 samples.

Results

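The primary granule genes described here are Mpo, Elane, Prtn3, Ctsg, Ms4a3 and Prss57, 6 of the 24706 genes measured in each library, and were taken by name from the deposited expression values. All 6 were present in each file and passed the filter on low values, an average of 1 FPKM or more (counted reads per unit of gene length and of library size) over the 4 libraries. The series holds 4 libraries of mouse cells labelled as myeloid cells, 2 labelled wt and 2 labelled cko. The study names the groups PD-1f/f and PD-1f/f; LysM-Cre: in the latter, Cre recombinase under control of the lysozyme M (Lyz2) locus is meant to delete a floxed part of Pdcd1 in myeloid cells, while both groups carry the floxed allele. Its methods call the controls wild-type mice. The source is given as CD11b+ cells sorted from the liver of P3 pups in the results and as RNA of P2 livers in the methods, and neither the number of animals behind a library nor their sex is stated, so that p-values measure only the spread between these libraries, which may be technical in part. The question addressed was whether the level of these genes, or the proportion among them, differed between cko and wt.

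Primary (azurophil) granules are the first granules that a developing neutrophil makes, at the promyelocyte stage. The genes for their proteins are transcribed at that stage and largely switched off when the cell goes on to make secondary granules, so the transcripts mark an early step of granulopoiesis, which in the newborn mouse still takes place in the liver. Mpo encodes myeloperoxidase, the haem enzyme that makes hypochlorous acid. Elane (neutrophil elastase), Prtn3 (proteinase 3), Ctsg (cathepsin G) and Prss57 (neutrophil serine protease 4) encode the granule serine proteases. Ms4a3 encodes a membrane protein of the MS4A family that is used as a marker of granulocyte-monocyte progenitors and their progeny. PU.1, C/EBP, RUNX and MYB proteins are the transcription factors best known for driving these genes.

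Prss57, Prtn3 and Elane lie within 1 cluster on mouse chromosome 10 (GRCm38). Prss57 runs from 79781474 to 79790961 on the minus strand, Prtn3 from 79874476 to 79883174 and Elane from 79886247 to 79888215, both on the plus strand and 3073 bp apart. Mpo lies on chromosome 11 from 87793581 to 87804413 (plus strand), Ctsg on chromosome 14 from 56099881 to 56102574 (minus strand) and Ms4a3 on chromosome 19 from 11629496 to 11640851 (minus strand). The promoters of the 3 classical serine proteases are shown because their transcripts lay apart between the groups to different degrees. Each is the RefSeq sequence (GRCm38.p6) just upstream of the first exon of the main transcript, 5′ to 3′ on the gene's own strand, with matches to the PU.1 motif GAGGAA on either strand in capitals. The windows are chr10:79886062-79886246 for Elane, chr10:79879417-79879613 for Prtn3 and chr14:56102575-56102824 for Ctsg.
Elane: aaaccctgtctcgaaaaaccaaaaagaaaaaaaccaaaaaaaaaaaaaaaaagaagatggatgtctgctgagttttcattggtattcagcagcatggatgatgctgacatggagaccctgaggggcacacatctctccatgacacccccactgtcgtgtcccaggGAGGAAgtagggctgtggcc
Prtn3: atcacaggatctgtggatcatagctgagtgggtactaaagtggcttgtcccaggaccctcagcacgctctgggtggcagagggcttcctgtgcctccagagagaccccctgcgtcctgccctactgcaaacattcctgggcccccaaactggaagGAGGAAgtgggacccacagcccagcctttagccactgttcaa
Ctsg: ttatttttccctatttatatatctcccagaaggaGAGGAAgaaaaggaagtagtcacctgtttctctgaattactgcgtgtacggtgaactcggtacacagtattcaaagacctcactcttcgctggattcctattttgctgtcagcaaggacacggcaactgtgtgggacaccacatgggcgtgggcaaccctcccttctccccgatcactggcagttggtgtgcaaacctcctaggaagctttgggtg

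GAGGAA occurred 1 time in each of the 3 windows, starting 20 bp before the transcript start in Elane, 42 bp in Prtn3 and 216 bp in Ctsg. Of all 27025 mouse promoters, 17.53%, 18.51% and 23.13% held it in windows of the same 3 lengths. For these and the following shares, windows were the first bases of each entry, matched in length but not placed by the transcript start. The motif AACNG of MYB matched 0 times in Elane, 2 times in Prtn3 and 3 times in Ctsg (63.86%, 66.13% and 74.14% of all promoters), TGTGGT of RUNX only in Ctsg, 1 time (14.18%), and the C/EBP half-site GCAAT in none of these windows. In the same stretch of Ms4a3 none of the 4 motifs matched. Mpo was left out because its entry holds only 47 bases upstream of the first exon, and no promoter of Prss57 is shown. These matches describe letters in a short window and were not tested as binding sites.

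Library totals recovered from the values lay between 17691505 and 22212407 reads. The targeted gene Pdcd1 had 28.5 and 34.7 FPKM in the wt libraries and 17.1 and 21.4 FPKM in the cko libraries, so transcripts remained in both. Genes of neutrophils led the libraries: secondary granule genes summed to between 54500 and 77873 FPKM. Markers of other cells were also present, with sums of 1444.2 to 3772.1 FPKM for 13 erythroid genes and 65.9 to 153.9 FPKM for 12 hepatocyte genes, both lowest in cko replicate 1; of the latter, Apob, Fgb and Trf averaged under 1 FPKM. The Y-linked genes Ddx3y and Eif2s3y reached 24.9 and 16.2 FPKM in wt replicate 2 and were at or near 0 in the other 3 libraries. Other than by library size, the values are not scaled between libraries. Over the 10779 genes tested the median log2 fold change (cko minus wt, on the log2(FPKM + 1) scale) was 0.09.

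Prtn3, encoding the protease proteinase 3, lay furthest apart between the groups. It had 267.2 FPKM in wt replicate 1 and 249.6 in wt replicate 2 (10280 and 8137 reads), against 538.1 and 449.6 FPKM in cko replicates 1 and 2 (17467 and 13776 reads). Both cko libraries therefore lay well above both wt libraries. The mean was 258.4 ± 12.5 FPKM (SD, n = 2) in wt and 493.8 ± 62.6 FPKM (SD, n = 2) in cko, a 1.91-fold difference. Its log2 fold change was 0.93 (SE 0.15, 95% interval 0.55 to 1.30), larger than the gap between replicates, which was 0.098 in wt and 0.26 in cko on the same scale. The unadjusted p of limma was 0.00114, but the Benjamini-Hochberg adjusted p over all tested genes was 0.183 and the fold change was below the 2-fold threshold of the study.

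Elane, the neutrophil elastase gene, was the most abundant member. It stood at 616.8 and 646.3 FPKM in wt (13482 and 11971 reads) and at 945.2 and 748.7 FPKM in cko (17431 and 13034 reads). The groups did not overlap, but the cko libraries differed from each other by 0.34 on the log2 scale, close to the log2 fold change of 0.41 (SE 0.16; unadjusted p = 0.0484, adjusted p = 0.301, limma). The difference was 0.58 without cko replicate 2 and 0.25 without cko replicate 1, and the unadjusted p was 0.143 to 0.195 when wt replicate 1, wt replicate 2 or cko replicate 1 was left out.

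Ctsg, the cathepsin G gene, had 81.0 and 63.8 FPKM in wt (1858 and 1241 reads) and 98.5 and 85.6 FPKM in cko (1907 and 1565 reads). The groups were apart by a narrow margin, between wt replicate 1 and cko replicate 2. The log2 fold change was 0.35 (SE 0.17; adjusted p = 0.375, limma), about the gap of 0.34 between the wt replicates, and it was 0.18 without wt replicate 2.

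Prss57, the least abundant of the 4 proteases, had 25.9 and 32.2 FPKM in wt (1635 and 1724 reads) and 32.9 and 26.9 FPKM in cko (1754 and 1355 reads). The 2 groups overlapped throughout. Its log2 fold change of 0.04 (SE 0.18, 95% interval -0.42 to 0.50; adjusted p = 0.929, limma) had no stable sign, being -0.06 after median-of-ratios scaling and -0.04 after quantile normalization.

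Mpo, the peroxidase gene, had 327.33 and 254.0 FPKM in wt (24895 and 16369 reads) and 384.3 and 327.28 FPKM in cko (24664 and 19825 reads). The groups overlapped, since wt replicate 1 and cko replicate 2 had the same level to within 0.1 FPKM. The log2 fold change was 0.30 (SE 0.18; adjusted p = 0.447, limma), below the gap of 0.36 between the wt replicates, and was 0.12 without wt replicate 2, 0.18 without cko replicate 1 and 0.48 without wt replicate 1. Ms4a3 had 46.0 and 42.0 FPKM in wt (1924 and 1488 reads) and 51.6 and 51.8 FPKM in cko (1823 and 1728 reads). Both cko libraries were above both wt libraries, and the log2 fold change of 0.23 (SE 0.14; adjusted p = 0.443, limma) exceeded the gaps of 0.13 in wt and 0.0059 in cko between replicates.

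**Figure D1:**
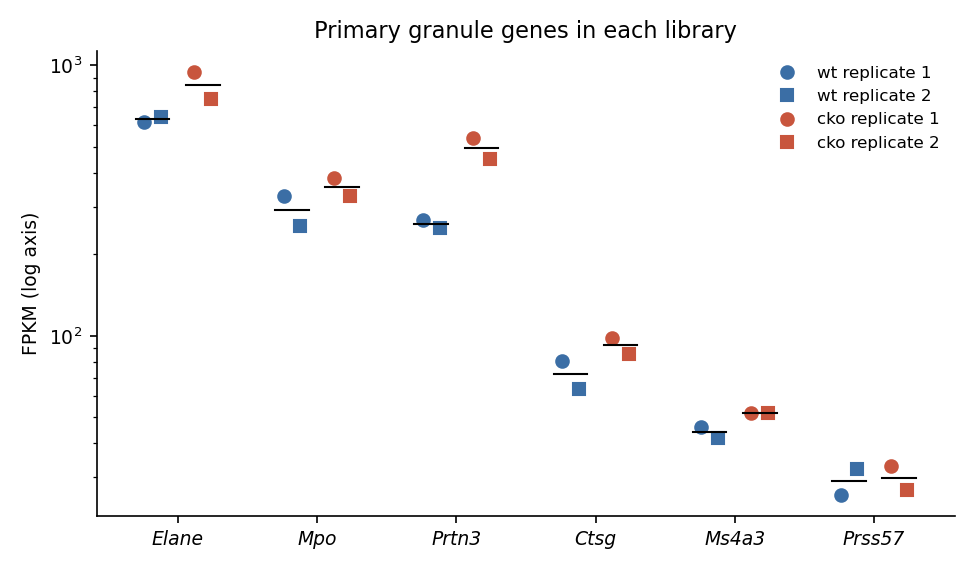
FPKM of each primary granule gene on a log axis, with 1 point per library and a black line at the mean of each group of 2. Prtn3 shows the widest gap between groups, from 267.2 FPKM in the higher wt library to 449.6 FPKM in the lower cko library, and Mpo and Prss57 overlap.

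The order of levels, per length, was Elane, then Mpo and Prtn3, then Ctsg, Ms4a3 and Prss57. Elane stood above every other member and Ctsg, Ms4a3 and Prss57 followed in that order in each of the 4 libraries. Mpo was above Prtn3 in wt replicate 1 (327.3 against 267.2 FPKM) and narrowly so in wt replicate 2 (254.0 against 249.6 FPKM). In cko the order was the reverse, with Prtn3 (449.6 to 538.1 FPKM) above Mpo (327.3 to 384.3 FPKM). In rank among all genes of a library, Elane stood between 37 and 59, Prtn3 at 127 and 149 in wt and 75 and 88 in cko, and Mpo between 96 and 144. The order depended on the gene length used. The files divide by the merged exons of all annotated transcripts, which come to 1732 bp in Prtn3 and 1884 bp in Ms4a3, while the main transcripts have 1025 bp and 1010 bp. With all reads placed on the main transcript, Prtn3 came to 451.5, 421.8, 909.2 and 759.7 FPKM in wt replicates 1 and 2 and cko replicates 1 and 2. It was then above Mpo (407.6, 316.2, 478.5 and 407.5 FPKM) in all 4 libraries and above Elane in cko replicate 2. Ms4a3 and Ctsg came close, at 78.3 to 96.7 and 65.8 to 101.5 FPKM. The differences between groups hardly depend on the length, at a log2 fold change of 0.93 for Prtn3 with either.

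Set against the whole table, 0 of the 6 genes passed the threshold of the study's methods (an absolute log2 fold change of at least 1 with an adjusted p under 0.05), as did 0.0% of all tested genes by limma (2 genes by voom on recovered reads, no member among them). At the threshold of its results (above 1 with an unadjusted p under 0.01) the count was 0 of 6 as well, against 2.29% of all genes, or 1.88% counting only genes higher in cko. An unadjusted p under 0.05 was reached by 2 members, Elane and Prtn3, both higher in cko, where 16.4% of all genes reached it, 11.4% higher and 4.95% lower in cko. The groups did not overlap for 4 members, all higher in cko, against 51.6% of all genes in either direction, 33.6% higher and 18.0% lower in cko. All 6 log2 fold changes were above 0, as were 60.4% of all. The median of the 6 was 0.32, beside 0.09 over all tested genes, and was 0.19 without wt replicate 2 and 0.43 without wt replicate 1 or cko replicate 2. A log2 fold change as high as that of Prtn3 was found in 502 genes, or 4.66%.

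**Figure D2:**
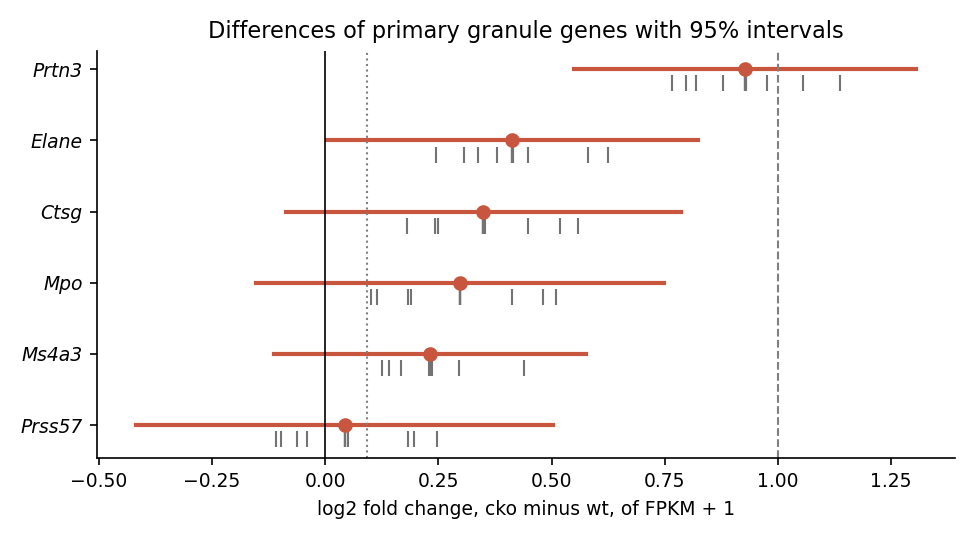
Log2 fold changes of FPKM + 1, cko minus wt, as points with 95% intervals from limma. Grey ticks are the values under the alternatives, the dotted line is the median of all tested genes (0.09) and the dashed line a 2-fold difference. Prtn3, at 0.93, has an interval clear of 0, Elane's begins at 0.00416, and the other 4 intervals include 0.

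Prtn3 was above 0 under each alternative tried, with log2 fold changes from 0.76 (quantile normalization) to 1.14 (erythroid and hepatocyte list genes removed and libraries rescaled to 1 total). Its unadjusted p ranged up to 0.0168, without wt replicate 2. It passed the threshold of the study's results under that rescaling and also when cko replicate 2 was left out (log2 fold change 1.06). The rescaling moved the median of all genes to 0.26, so the difference of Prtn3 from that median was little altered. In bulk RNA a higher share of promyelocytes and more transcript per cell cannot be told apart.

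The summed FPKM of the 6 genes was 1364.2 and 1287.9 in wt and 2050.6 and 1690.0 in cko. They made up 0.277% and 0.282% of all FPKM in wt and 0.497% and 0.418% in cko. As a share of counted reads, which is not weighted by length, they took 0.243% and 0.217% in wt and 0.347% and 0.290% in cko. The cko libraries were above the wt libraries in each measure (two-sided exact permutation p = 0.333, the smallest p that 2 against 2 libraries can give). The difference in summed FPKM came mostly from Elane (mean 631.6 in wt, 846.9 in cko) and Prtn3 (258.4, 493.8). Mpo (290.7, 355.8) and Ctsg (72.4, 92.1) added less, and Ms4a3 (44.0, 51.7) and Prss57 (29.1, 29.9) little. The total FPKM differed between libraries, from 491982.9 in wt replicate 1 to 403900.3 in cko replicate 2, and its top 10 genes held 46.6% and 42.3% of the total in the wt libraries and 33.1% and 29.4% in the cko libraries. Lyz2, whose locus controls Cre in the cko group, had 31306 and 32147 FPKM in wt and 10422 and 8127 FPKM in cko (log2 fold change -1.79, adjusted p = 0.183, limma). The total and the part of the top 10 genes were lower in cko, where the share of the members was higher. Within cko the relation was the reverse, as replicate 2 had the lower total, the lower top 10 part and the lower share. The part of these values in the share was not tested.

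Ratios within a library do not depend on how libraries are scaled. Prtn3 stood at 0.816 and 0.983 times the FPKM of Mpo in wt and at 1.40 and 1.37 times in cko. Against Elane, its neighbour on the chromosome, the ratio was 0.433 and 0.386 in wt and 0.569 and 0.601 in cko. Relative to the mean log2 level of the other 5 genes, Prtn3 was at 1.23 and 1.22 in wt and at 1.91 and 1.86 in cko, a difference of 0.66 (exact permutation p = 0.333, the smallest possible) beside an SD of 0.0047 in wt and 0.034 in cko (n = 2 each). The shift of Prtn3 against the other members was thus larger than the spread between replicates.

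The ratio of Ctsg to Mpo varied least, at 0.247 and 0.251 in wt and 0.256 and 0.262 in cko. Elane to Mpo was 1.88 and 2.54 in wt and 2.46 and 2.29 in cko, with the wt replicates further apart than the groups. Ms4a3 to Mpo was 0.141 and 0.165 in wt and 0.134 and 0.158 in cko, again without separation. Prss57 to Mpo was 0.0791 and 0.127 in wt and 0.0856 and 0.0823 in cko. Against the mean of the other 5, Prss57 was lower in cko than in wt, at -2.82 and -2.33 in wt and -2.93 and -3.01 in cko on the log2 scale. Ms4a3 was lower in cko on that measure too, at -1.821 and -1.868 in wt and -2.151 and -1.881 in cko, by a narrow margin for cko replicate 2. Prtn3 is itself 1 of these 5. By the distance between centred log2 profiles over the 4 libraries, Mpo and Ctsg were the closest pair of members (0.0588) and Prtn3 and Prss57 the furthest (0.929).

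**Figure D3:**
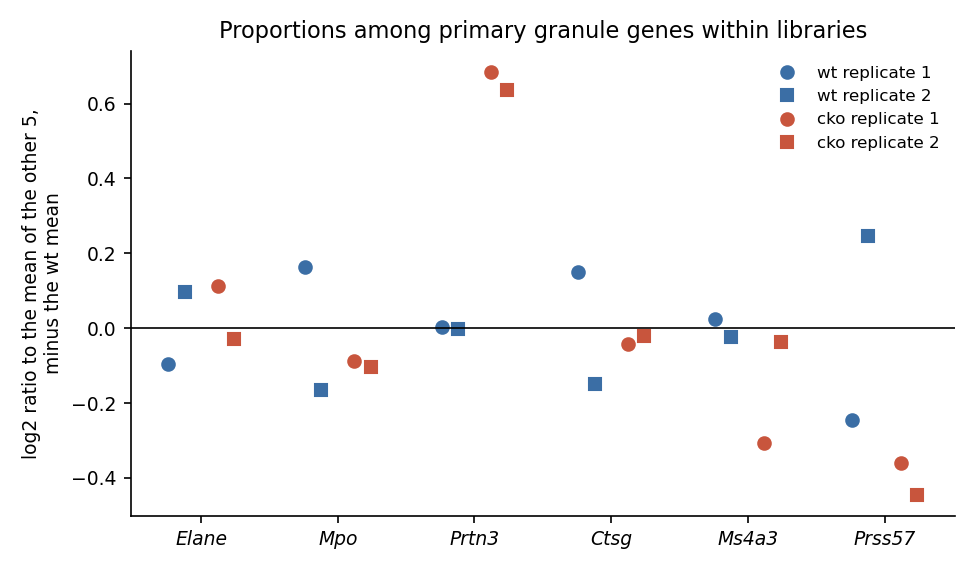
Log2 ratio of each gene to the mean log2 level of the other 5 within the same library, minus the wt mean, so that scaling between libraries plays no part. The cko points of Prtn3 lie 0.66 above wt on average, with replicates close together. For Mpo and Ctsg both cko points lie below 0 but between the 2 wt points, and for Elane cko replicate 1 lies above both wt points.

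Genes that process, package and restrain granule proteases were described next, since the proteases are stored active. Of 6 such genes tested, 4 were above 0 and 2 below, with a median log2 fold change of 0.29 (0.12 without wt replicate 2, 0.46 without wt replicate 1). None passed either threshold of the study. Ctsc, encoding the dipeptidyl peptidase (cathepsin C) that activates all 4 granule proteases, had 88.0 and 67.2 FPKM in wt and 124.6 and 240.0 FPKM in cko (log2 fold change 1.16, unadjusted p = 0.0142, adjusted p = 0.228, limma). Srgn, encoding the proteoglycan serglycin that retains the proteases in granules, had 143.8 and 104.2 FPKM in wt and 181.5 and 460.5 FPKM in cko (1.23, adjusted p = 0.271, limma). Both were highest in cko replicate 2, and without it their log2 fold changes were 0.69 and 0.56. The members had another order, higher in cko replicate 1 than in cko replicate 2 except for Ms4a3, which was level.

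Cst7, encoding the cathepsin inhibitor cystatin F, had 20.1 and 12.3 FPKM in wt and 21.8 and 25.1 FPKM in cko (0.54, adjusted p = 0.351, limma). Serpinb1a, an abundant cytosolic inhibitor of these proteases, overlapped between groups at 809.3 to 1044 FPKM in cko and 890.5 to 898.7 FPKM in wt. Serpinb6a, an inhibitor of cathepsin G, was lower in both cko libraries (4.79 and 5.01 FPKM against 6.83 and 7.02), with a log2 fold change of -0.43 (adjusted p = 0.288, limma). Slpi, a secreted inhibitor of elastase and cathepsin G, was lower as well, at 27.9 and 30.8 against 38.1 and 36.8 FPKM (-0.35, adjusted p = 0.313, limma). Inhibitors thus lay on either side of 0 and none passed the adjusted test.

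Of 12 transcription factors of granulocyte and monocyte development, 10 were tested, 5 above and 5 below 0, with a median log2 fold change of -0.09 (0.05 without wt replicate 1). Spi1, which encodes PU.1, had 77.3 and 126.2 FPKM in wt and 263.6 and 145.0 FPKM in cko, without overlap (log2 fold change 0.98, or 0.55 without cko replicate 1, unadjusted p = 0.0359, adjusted p = 0.275, limma). Klf4, a factor of the monocyte lineage, had 1.74 and 2.67 FPKM in wt and 4.44 and 5.04 in cko (0.86, adjusted p = 0.214, limma). Irf8 (0.39), Runx1 (0.31) and its partner Cbfb (0.02) were also above 0. Cebpe, which drives the step to secondary granules, had 81.5 and 101.2 FPKM in wt and 89.7 and 40.9 in cko (-0.58, adjusted p = 0.466, limma), so only cko replicate 2 was low, and the log2 fold change without it was -0.02. Gfi1b (-0.56), Myb (-0.47), Cebpd (-0.20) and Gfi1 (-0.19) were below 0 with no adjusted p under 0.39. Cebpa, at 0.425 to 1.09 FPKM, and Cebpb, at 0.479 to 1.43 FPKM, were under the filter.

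Along neutrophil development, lists of stage genes lay on different sides of 0. Of 11 progenitor genes tested, 8 were above 0, with a median of 0.29. The 3 below 0 were Kit, Fcgr3 and Cd63. Kit had 4.33 and 3.85 FPKM in wt and 2.19 and 2.87 FPKM in cko (-0.53, adjusted p = 0.288, limma). Fcgr3 (-0.35) and Cd63 (-0.21) overlapped between groups, and Cd34 was at 0.009. Csf2rb, the shared receptor chain for GM-CSF and IL-3, had 127.4 and 112.1 FPKM in wt and 213.4 and 237.6 FPKM in cko (0.91, unadjusted p = 0.00105, adjusted p = 0.183, limma). Csf1r, the receptor of the macrophage growth factor M-CSF, is also on the monocyte list. It had 40.9 and 33.0 FPKM in wt and 45.6 and 112.8 FPKM in cko (0.95, or 0.31 without cko replicate 2, adjusted p = 0.334, limma).

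Secondary granule genes, which follow the primary granule genes in time, had a median of -0.15 (0.062 without cko replicate 2), with 3 of 10 above 0 and 7 below. Camp, the cathelicidin gene, had 19301 and 17673 FPKM in wt and 9260 and 7948 FPKM in cko, the only gene of this list past the threshold of the study's results (-1.11, unadjusted p = 0.000737, adjusted p = 0.183, limma), with a log2 fold change of -0.996 without cko replicate 2. Chil3, encoding a chitinase-like protein, overlapped between groups, with 322.2 and 599.4 FPKM in wt and 962.1 and 436.7 FPKM in cko (0.56, or -0.0093 without cko replicate 1, adjusted p = 0.557, limma). Ngp (-0.11) and Ltf (-0.40), the lactoferrin gene, were below 0. Of 12 genes of tertiary granules and mature neutrophils 5 were above and 7 below 0 (median -0.14). S100a8, encoding a calprotectin subunit, was past the same threshold (-1.07, or -0.78 without wt replicate 1, unadjusted p = 0.00447), and Il1r2, the decoy receptor for IL-1, had the largest difference, at 42.2 and 34.1 FPKM in wt and 80.1 and 227.9 FPKM in cko (1.81, or 1.06 without cko replicate 2, adjusted p = 0.214, limma). Of 18 proliferation genes 14 were above 0, with a median of 0.15, which was 0.23 in cko replicate 1 and 0.03 in cko replicate 2 relative to the wt mean.

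Of the erythroid, hepatocyte, monocyte and Kupffer cell lists, only the erythroid medians lay apart between the groups. The 13 erythroid genes had a median of -0.67 (12 below 0) and the 9 hepatocyte genes tested one of -0.44 (8 below 0; -0.18 without wt replicate 2), Hba-a1 among the former with 1961 and 1366 FPKM in wt and 826 and 840 FPKM in cko. The 12 monocyte genes had a median of 0.50, and were highest in cko replicate 2, at 0.89 relative to the wt mean against 0.097 in cko replicate 1. Their summed level was 1244, 1212, 1386 and 1812 FPKM in wt replicates 1 and 2 and cko replicates 1 and 2. The 12 Kupffer cell genes had medians of -0.31 in cko replicate 1 and 0.33 in cko replicate 2. The primary granule genes were 0.43 and 0.24 above the wt mean in these libraries, the higher value in the library with fewer monocyte and Kupffer cell transcripts. The part of cell composition in the differences of the members was not tested.

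**Figure D4:**
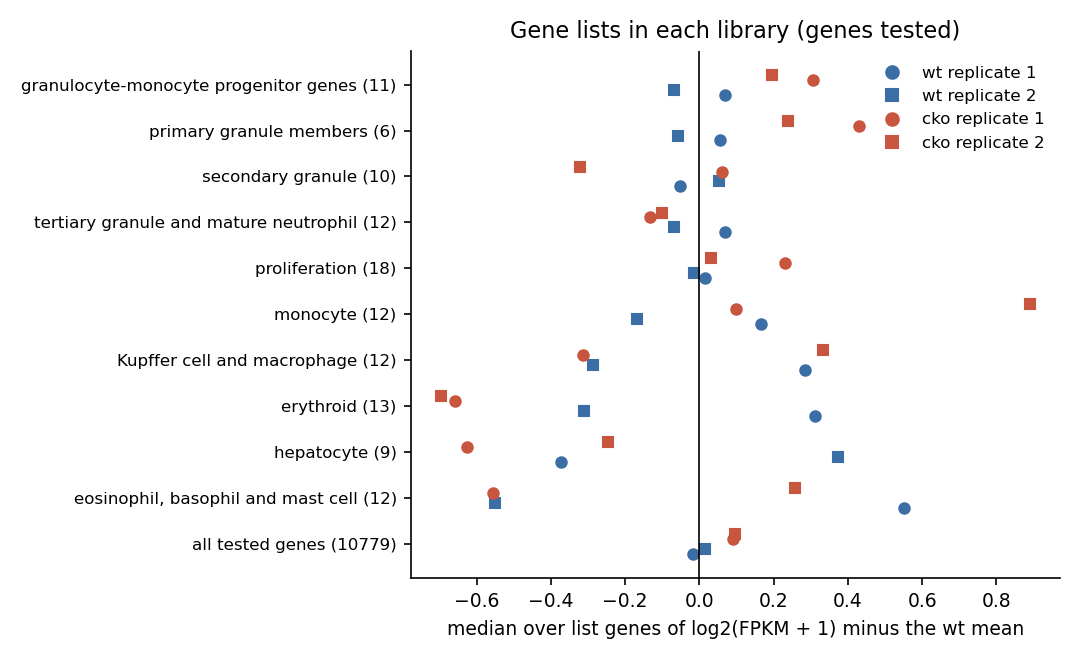
Median over the tested genes of each list (number in brackets) of log2(FPKM + 1) minus the wt mean of the gene, 1 point per library. Primary granule genes are at 0.43 and 0.24 in cko replicates 1 and 2, erythroid genes at -0.66 and -0.70, and the monocyte median of 0.89 in cko replicate 2 stands apart from the other 3 libraries.

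Around Prss57, Prtn3 and Elane, 13 other genes within 100000 bp of 1 of them were tested. Of these 11 were above 0 and 2 below, where 60.4% of all tested genes were above 0. Ptbp1, a splicing regulator, was the only one with an unadjusted p under 0.05, which 16.4% of all tested genes reached. It had 33.9 and 28.2 FPKM in wt and 39.9 and 45.8 FPKM in cko (log2 fold change 0.45, adjusted p = 0.275, limma). Plppr3, whose 5′ end overlaps the first bases of the annotated Prtn3 gene on the opposite strand, outside the main Prtn3 transcript, had 2.13 and 1.65 FPKM in wt and 3.0 and 2.30 FPKM in cko. Med16, next to Elane on the far side, was at 0.49 and R3hdm4 beyond it at 0.04. Fstl3, which overlaps Prss57 on the opposite strand, was at 0.109 FPKM or less. Prtn3 had the highest log2 fold change of the cluster, ahead of Tmem259, which was measured at 0.203 to 2.77 FPKM.

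**Figure D5:**
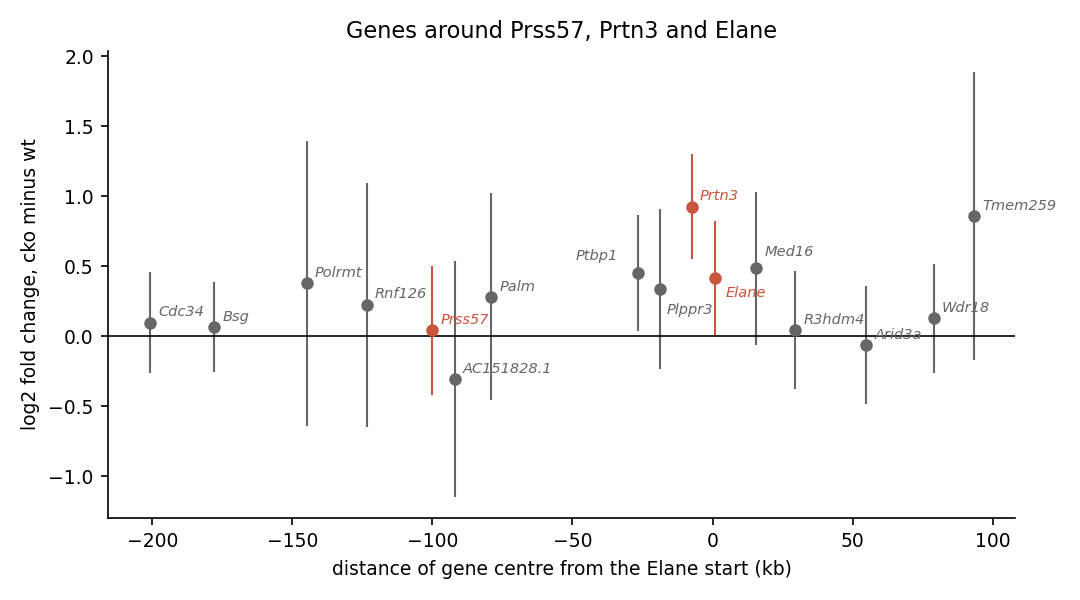
Log2 fold changes (cko minus wt) with 95% intervals of tested genes around the Elane start, by the distance of each gene's centre in kb, with members in red. Prtn3, at -7.42 kb, has a log2 fold change of 0.93, while Prss57, at -100.0 kb, is at 0.04.

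Near Mpo, the eosinophil peroxidase gene Epx had 8.03 and 2.91 FPKM in wt and 2.53 and 4.32 FPKM in cko, and the lactoperoxidase gene Lpo was at 0.289 FPKM or less. Mir142hg, host of a microRNA of blood cells, was at 0.41 and Supt4a at -0.38 on the log2 fold change scale. Near Ctsg, the basophil protease Mcpt8 had 24.4 and 9.48 FPKM in wt and 7.0 and 17.2 FPKM in cko. Near Ms4a3, the macrophage gene Ms4a6d had 28.6 and 21.1 FPKM in wt and 25.0 and 62.9 FPKM in cko. Over all 13 tested paralogs of the granule proteases, peroxidases and MS4A proteins, 6 were above and 7 below 0 (median -0.04, with a range of -0.56 without cko replicate 2 to 0.47 without wt replicate 1), and the granzyme gene Gzma, of T and NK cells, was past the threshold of the study's results (-1.34, or -0.99 without wt replicate 1, unadjusted p = 0.00515, adjusted p = 0.21, limma).

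Among 3811 genes averaging 10 FPKM or more, those with a profile most like the mean of the members were Actr1a (distance 0.019 between centred log2(FPKM + 1) values over the 4 libraries), Chp1, Myo1g, Ddx27 and Lrrc57. None is a granule gene. Actr1a, which encodes a dynactin subunit, had 60.4 and 57.2 FPKM in wt and 83.1 and 71.9 FPKM in cko. Closest to Prtn3 alone were Ube2h (0.14), E030024N20Rik, Tbk1, Npepps and Lrg1. Lrg1, encoding a glycoprotein that neutrophils store in their later granules, had 796.9 and 830.9 FPKM in wt and 1917 and 1601 FPKM in cko (1.11, unadjusted p = 0.00049, adjusted p = 0.183, limma). With 4 libraries such a ranking is a description of levels.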

How the data were processed

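RNA-seq was analysed for 4 libraries, grouped by their labels. The authors deposited FPKM per gene, 1 library per file; the submitters' processing notes name Bowtie2 2.2.3, TopHat2 2.0.12, HTSeq 0.6.0 and build mm9, whereas 92.61% of the genes have the exact coordinates of GENCODE M21 (GRCm38), which was used here. Whether reads were counted by strand is not given in the sources used here. Values were whole multiples of 1 read (tolerance 0.01), so reads were recovered for 91.17% of the genes and all members. Differences were tested, two-sided, with limma 3.58.1 in R 4.3.3 (eBayes with a trend) on log2(FPKM + 1), Benjamini-Hochberg adjusted over the 10779 genes averaging 1 FPKM or more, and ratios and sums with exact permutation tests over libraries. The fit was tested on simulated reads with an assumed spread and with changes larger than those of the members. That test does not show how the fit does at differences of their size. Tables and figures were made with Python 3.11.15 and matplotlib 3.10.9. The members and the 16 gene lists were chosen with earlier results of these data known. Named were the members, Pdcd1, Lyz2 and all genes of the protease processing and transcription factor lists. From the other lists, genes among the 3 most abundant or the 2 with the largest difference were named. Neighbours within 100000 bp and the 5 genes of most similar profile were named too. Apob, Fgb, Trf, Kit, Cd34, Ddx3y and Eif2s3y were named after their values were seen. Profiles closest to Prtn3 alone, the ratio of Prtn3 to Elane and the length of the main transcript were added after the values were seen. Megakaryocyte, B cell, T and NK cell, and eosinophil, basophil and mast cell lists had medians of -0.16, -0.51, -0.63 and -0.27, of which the first and last were 0.46 and 0.33 without wt replicate 1, and -0.77 and -1.00 without wt replicate 2. Alternatives covered a pseudocount of 0.1, other filters (none, or a mean of at least 5 FPKM), scalings, no trend, a replicate block, voom on recovered reads and each library left out.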

Additional observations from a re-analysis of the deposited data

How the results depend on the processing

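With 2 libraries a group, the limits are set by the replicates and not by depth, since each member held at least 1241 reads in every library. Prss57 turned to -0.062 after median-of-ratios scaling and -0.041 after quantile normalization, and ranged from -0.11 to 0.20 as libraries were left out. The other 5 members kept a log2 fold change above 0 under every alternative. Rescaling libraries to 1 total, with erythroid and hepatocyte list genes removed, moved the median of all genes from 0.09 to 0.26. Median-of-ratios scaling moved it to 0.003. Removal itself altered little, as the members' share of all FPKM differed by 0.178 percentage points between groups with or without those genes. Under the rescaling to 1 total the member median was 0.53. It left 1 member past the threshold of the study's results (Prtn3) and 5 members with an unadjusted p under 0.05. That last count was 1 with no filter, with median-of-ratios scaling, quantile normalization, no trend or the replicate block, and 1 to 2 as libraries were left out, when the former count was 0 to 1 (1 without cko replicate 2). The labels share replicate numbers but the differences of replicates did not go together (r = -0.16 over genes). Whether the numbers pair the libraries is not stated, and 1 such correlation cannot decide it. The block gave Prtn3 an unadjusted p of 0.0046 (limma). Over all genes, voom called 2 at the methods threshold. At a mean of at least 5 FPKM, 126 genes passed the results threshold and 1135 an unadjusted p under 0.05. As libraries were left out these counts were 131 to 462 and 845 to 1732. The transcription factor median was 0.16 at a mean of at least 5 FPKM, 0.097 after the rescaling to 1 total, and -0.20 to 0.049 by library. The progenitor median was 0.077 with no filter, 0.49 after the rescaling to 1 total and 0.082 by voom. That of secondary granule genes was 0.072 by quantile normalization, 0.058 after the rescaling to 1 total and -0.32 to 0.062 by library. That of proliferation genes was 0.35 after the same rescaling. By library, the medians of erythroid genes and paralogs were -0.94 to -0.38 and -0.56 to 0.47. Differences of log2 ratios to Mpo ranged by library from -0.10 to 0.33 for Elane, -0.18 to 0.056 for Ms4a3 and -0.60 to 0.086 for Prss57, and Ctsg gave -0.031 against the mean of the other 5. The causes were not tested. Of the remaining values under alternatives, 78 for single members kept their direction. They also kept their side of the threshold, except that values on the length of the main transcript were judged by direction alone. Another 285 were medians that shifted by less than 1 SD of replicates, sums and ratios that kept their direction, or counts within a fixed fold of the main count. Such counts still moved: genes with an unadjusted p under 0.05 (limma) were 1768 in the main fit. They were 2543 after the rescaling to 1 total, 2408 with no filter and 1247 with the replicate block.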
